A study of Mus musculus with 8 samples.

Results

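Gsc- and Otx2-positive cells were described in single-cell RNA libraries of mouse embryoid bodies at day 5 of differentiation. A cell was a member if it held at least 1 unique molecular identifier (UMI, a count of 1 captured transcript) of Gsc and at least 1 of Otx2, fewer than 2 of Sox17 and fewer than 3 of Pou5f1, with at most 15% of its UMIs from mitochondrially encoded genes. The rule found 140 cells among 7589 kept of 7618 deposited. Of these, 139 came from the library labelled Tet triple knockout (TKO) and 1 from the library labelled wild type (WT). The members were chosen by their measured counts of Gsc, Otx2, Sox17 and Pou5f1, so the levels of these genes are a description with no test.

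Both libraries came from E14 embryonic stem cells that carry an EmGFP reporter at Nkx2-5. The stem cells were kept on mitomycin C-treated mouse embryonic fibroblast feeders with leukemia inhibitory factor, and were differentiated as embryoid bodies in hanging drops without that factor. The groups differ in genotype, wild type against loss of the 3 Tet genes, whose proteins oxidise 5-methylcytosine, and each group had 1 library, with no statement of how many clones or bodies it held. The remaining 6 samples, in which DNA with 5-hydroxymethylcytosine was pulled down at days 0, 2 and 5 of wild-type differentiation, were not analysed here.

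Gsc encodes goosecoid, a homeodomain repressor of the organizer and of the anterior mesendoderm, the tissue that gives rise to the prechordal plate and part of the foregut lining. Otx2 encodes a homeodomain activator needed for the head, which is present in epiblast, anterior mesendoderm and anterior neural plate. In the embryo the prechordal plate secretes antagonists of Wnt, BMP and Nodal signals (Dkk1, Cer1, Chrd, Nog, Lefty1) together with Shh. Gsc is also found later in head and branchial arch mesenchyme, where Alx1, Twist1 and Prrx1 are active, and the pharyngeal lining expresses Pax9.

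The stretch upstream of Gsc is shown because every member was chosen through this gene and because CpG dinucleotides, in capitals, are the sites at which Tet proteins act. Gsc lies on the minus strand of chr12:104471209-104473236, and the 250 bases before its start are at chr12:104473237-104473486 (RefSeq, GRCm38.p6).
Gsc upstream: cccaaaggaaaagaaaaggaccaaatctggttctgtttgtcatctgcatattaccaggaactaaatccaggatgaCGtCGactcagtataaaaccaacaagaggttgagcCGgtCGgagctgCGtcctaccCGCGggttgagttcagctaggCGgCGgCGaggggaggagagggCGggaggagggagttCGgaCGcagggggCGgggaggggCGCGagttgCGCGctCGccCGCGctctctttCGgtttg
It holds 22 CpG sites, against a median of 6 over the 32851 promoter windows in the table, of which 14.8% hold at least as many. The motif TAATCC, a site bound by homeodomain proteins of the Gsc and Otx2 type, was searched on both strands (GGATTA on the other) in windows of 250 bases before to 50 after each start. It was absent from the Gsc window and was found in 1 of the 4 Otx2 windows, with the match in capitals here, at chr14:48665303-48665332 on the minus strand.
Otx2 match: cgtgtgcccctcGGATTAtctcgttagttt
Among all windows 7.06% held the motif. Of 15 genes (Gsc, Otx2, the markers Tal2, Col2a1 and Pax9, and the 12 genes with the highest ratios in members, of which Col2a1 and Pax9 are 2), those with windows numbered 11, and the motif was in a window of 2 of these, Otx2 and Cntnap2. Counted by window, as the 7.06% is, the motif was in 2 of their 18 windows (11.1%).

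Gsc and Otx2 transcripts were found in many cells of the TKO-labelled library and in few of the WT-labelled one. Gsc was held by 259 of 3197 TKO-labelled cells (8.10%) and by 22 of 4392 WT-labelled cells (0.501%). Otx2 was held by 1124 TKO-labelled cells (35.2%) and by 21 WT-labelled cells (0.478%). Members were 4.35% of the TKO-labelled cells (exact Clopper-Pearson 95% interval 3.67 to 5.11%) and 0.0228% of the WT-labelled cells (0.000576 to 0.127%). The intervals cover counting error only, and with 1 library per group the genotype and the library cannot be told apart. The WT-labelled library was the shallower, with a median of 7850 UMIs per cell against 9679. With each cell thinned to 4000 UMIs, the rule held in 55 of 3007 TKO-labelled cells (1.83%) and in 0 of 4019 WT-labelled cells, which allows a share of up to 0.0746% by a limit of 3 counts, or 0.0917% by the exact interval.

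**Figure D1:**
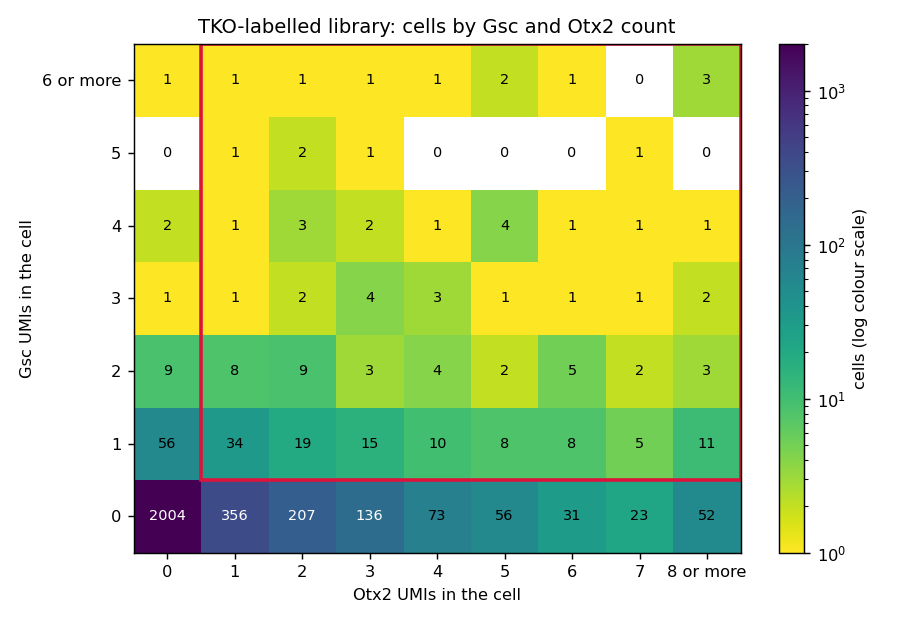
Number of TKO-labelled cells at each count of Otx2 UMIs (x axis) and Gsc UMIs (y axis), with colour on a log scale. The red frame holds the 190 cells with both genes, 139 of them members after the limits on Sox17 and Pou5f1, and most have 1 or 2 Gsc UMIs.

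The single WT-labelled member was a deep cell, with 17850 UMIs, among the 5% of its library with the most. It held 1 Gsc, 2 Otx2, 8 Trh, 3 Col2a1 and 1 Pax9 UMIs and no Tal2 or Alx1. One cell gives no level for a condition, and all further values are from the TKO-labelled library.

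Gsc was more frequent in cells with Otx2 than in cells without it, although most Otx2 cells lacked Gsc. Gsc was in 16.9% of the cells with Otx2 (14.8 to 19.2%) and in 3.33% of those without (2.60 to 4.19%). Cells with Otx2 were deeper, with a median of 11549 UMIs against 8892. After thinning the shares were 8.92% and 2.31%. Within the members the 2 counts were only loosely related (Spearman's rho 0.19 over 139 cells of 1 library), and Otx2 counts followed the depth of the cell more closely (rho 0.34).

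Both genes were also detected in classes not expected to express them. In cells with at least 3 of 8 endothelial genes, Gsc was in 5 of 79 (6.33%) and Otx2 in 13 (16.5%), at a median of 11667 UMIs. After thinning these shares were 2.63% and 1.32%. In cells with at least 5 contractile genes, Gsc was in 3.89% of 283 and Otx2 in 12.7%, and both in 7 cells. Thinned, Gsc was in 0.368% and Otx2 in 6.99% of these, against 3.79% and 22.4% of all TKO-labelled cells. The reference classes thus differed from each other, and the part of free RNA and of doublets in these counts was not tested. The unthinned share of all TKO-labelled cells with Gsc, 8.10% at a median of 9679 UMIs, is thus close to that in the endothelial reference, while 59 members held 2 or more Gsc UMIs. A member with 1 Gsc UMI cannot be told from a cell with a stray transcript, and there were 80 of these. Doublets were not removed, and 13 members (9.35%) were among the 5% of cells with the most UMIs, against 4.77% of the other cells.

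Members held 1 Gsc UMI in 80 cells, 2 in 26 and 3 or more in 33, with a median of 1 and a highest value of 13. For Otx2 the lowest, median and highest counts were 1, 3 and 17, and 37 members had 1 UMI. Sox17 was at 0 in 122 members and at 1, just inside the limit, in 17, while 37 cells with both genes lay outside it. Pou5f1 was at 0 in 127 members, at 1 in 11 and at 2 in 1, and 14 cells lay outside that limit. The members' median depth was 11728 UMIs and 3195 genes, against 9567 UMIs and 2827 genes in the 3058 other cells of the library, and their mitochondrial shares were alike at medians of 3.97% and 4.05%. Transcripts of Tet1, Tet2 and Tet3 were present in the members at 18.2, 3.40 and 22.1 CPM (UMIs of the gene per 1000000 UMIs of the summed cells), against 22.8, 4.60 and 20.3 CPM in the whole library and 12.3, 6.82 and 29.2 CPM in the WT-labelled library. The labels do not name the deleted parts, so these counts do not check the genotype.

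Expression was compared on summed UMIs scaled to CPM, with ratios given with exact 95% intervals for counting error. Cells of 1 library are not replicates, so no test was made, and genes were counted as higher or lower at a ratio of 2 or more where the mean of the 2 CPM values was at least 10. Against the other cells of the library, 59 of 7467 genes were higher in the members (0.79%) and 117 were lower (1.57%). Nothing is read from these counts about the rule's genes, since the cells were chosen in the same counts.

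The 3 markers proposed for these cells beside Gsc and Otx2 were Tal2, a transcription factor gene of the developing midbrain and blood, Col2a1, the collagen II gene of notochord and cartilage, and Pax9, a factor of the pharyngeal lining. All 3 were higher in members than in the other cells. Col2a1 (chr15:97975602-98004724) was in 81 members, at 93.0 CPM (79.3 to 108) against 29.6 CPM, a ratio of 3.14 (2.65 to 3.72). Pax9 (chr12:56691693-56712824) was in 44 members, at 56.2 CPM against 19.3 CPM, a ratio of 2.91 (2.33 to 3.61). Tal2 (chr4:53779701-53788712) was in 27 members, at 31.8 CPM against 9.92 CPM, a ratio of 3.20 (2.36 to 4.26), with 10 of its 56 UMIs in 1 cell (ratio 2.64 without it). At least 1 of the 3 was in 102 members (73.4%), all 3 were in 8, and none was in 37, while 27.2% of the other cells held at least 1.

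These markers did not set the members clearly apart from the 612 cells with Otx2, no Gsc and the same limits on Sox17 and Pou5f1. Against those cells the ratio was 1.40 for Tal2 (1.01 to 1.92), 1.41 for Col2a1 (1.17 to 1.69) and 1.17 for Pax9 (0.923 to 1.47). After thinning, Pax9 was in 16.1% of 137 members and 15.1% of 583 Otx2 cells without Gsc, and Col2a1 was in 35.8% and 22.6%. Over all genes, 20 of 7403 were 2-fold or more higher in members than in Otx2 cells without Gsc (0.27%) and 40 were lower (0.54%). The Otx2 cells without Gsc are themselves among the other cells, so the comparisons share cells.

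Most secreted antagonists of the organizer and prechordal plate, for which the label of anterior mesendoderm would call, were sparse, with Frzb the exception. The dorsalising BMP antagonist genes Chrd and Nog were in 6 and 5 members, the antagonist genes Cer1 and Lefty1 in 5 and 3, and Shh in 6, with 7 of its 14 UMIs in 1 cell. At least 1 of Chrd, Nog, Shh and Cer1 was in 14 members (10.1%, 5.62 to 16.3%) against 8.24% of the other cells (7.29 to 9.27%), so the shares overlapped. Dkk1, a Wnt co-receptor antagonist gene, was at 50.5 CPM against 41.6 CPM (ratio 1.21, with an interval that includes 1), and 20 of its 89 UMIs were in 1 cell. Frzb, a secreted Wnt antagonist gene also active in cartilage, was in 76 of 139 members and 766 of 3058 other cells, at 73.2 against 42.3 CPM (ratio 1.73, 1.43 to 2.07). Against Otx2 cells without Gsc, at 76.5 CPM, its ratio was 0.956 (0.782 to 1.16). Sfrp5, a secreted Wnt antagonist gene of the foregut and heart, was 16.5-fold lower (5.61 to 80.0), with 3 UMIs in 2 members.

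Transcription factors shared by the organizer and the foregut were more frequent. Hhex, a homeodomain factor gene of anterior endoderm, was in 57 members at 60.7 CPM against 33.6 CPM in the other cells (ratio 1.81, 1.47 to 2.21). Foxa2, a forkhead factor gene of node, notochord and endoderm, was in 36 members at 43.7 CPM against 26.2 CPM (ratio 1.67, 1.30 to 2.11), but 32 of its 77 UMIs lay in 9 members with T, and the other 130 members stood at 27.5 CPM. Lhx1, a LIM homeodomain factor gene of the organizer, was at 36.9 CPM against 31.4 CPM (ratio 1.17, 0.898 to 1.51). Against the Otx2 cells without Gsc the ratios were 1.11 for Hhex, 1.20 for Foxa2 and 0.784 for Lhx1, each with an interval that includes 1. Six3, a homeodomain factor gene of the prechordal plate and the anterior forebrain, had the highest ratio among the 7 organizer genes that passed the minimum level. It was in 27 members at 30.6 CPM, against 7.47 CPM in the other cells (ratio 4.10, 2.99 to 5.53) and 11.7 CPM in Otx2 cells without Gsc (ratio 2.62, 1.82 to 3.76). That last ratio was 4.68 (2.64 to 8.24) among cells with 1 or 2 Otx2 UMIs and 1.46 (0.887 to 2.36) among those with 3 or more. Reads of Six3 and of its overlapping neighbour Six3os1 could be mixed, since no source read for this work says whether counting used the strand. Of 16 organizer genes 7 passed the minimum level against the other cells, with 1 higher by 2-fold (Six3), 1 lower (Sfrp5) and a median log2 ratio of 0.75. The median over all 7467 genes was -0.00. Against Otx2 cells without Gsc the median of the organizer genes was 0.19 over 6 genes. Dmbx1, an organizer list gene below the minimum level, was in 19 members (13.7%), 2.78% of the other cells and 6.86% of Otx2 cells without Gsc. After thinning these shares were 5.84%, 1.05% and 1.89%.

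A small set of 9 members held T, the brachyury gene of primitive streak and notochord, and accounted for its 64 UMIs (22 in 1 cell). T was at 36.3 CPM in members against 8.63 CPM in the other cells (ratio 4.21, 3.15 to 5.54, and 2.78 without the cell with the most). Foxa2 was at 255 CPM in these 9 cells against 27.5 CPM in the other 130 members, a ratio of 9.28 (5.71 to 14.9). Six3 stood at 120 CPM against 23.8 CPM, Dkk1 at 183 against 40.3 CPM and Ptch1, the Hedgehog receptor and target gene, at 279 against 84.9 CPM. Genes of head mesenchyme were higher too, Prrx1 at 120 against 14.7 CPM (ratio 8.16, 3.98 to 16.2) and Twist1 at 79.7 against 34.2 CPM (ratio 2.33, 1.06 to 4.61). Foxc1, of head mesoderm, was lower at 7.97 against 48.2 CPM. In the same 9 cells Trh, the gene of the thyrotropin-releasing hormone precursor, was 9.02-fold lower than in the other members (5.15 to 17.5) and Pax9 had no UMI. Noto, a node and notochord gene, had no UMI in any member. Foxa2, Prrx1 and Twist1 were each in 6 of these 9 cells, Six3 in 5, Trh in 4 and Dkk1 in 3. The sums thus do not describe every cell, and the 9 were looked at after the values were seen.

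The epithelial genes Krt18, Epcam and Cdh1 were each in most members. At least 1 of the epithelial adhesion genes Epcam and Cdh1 was in 114 members (82.0%). All 13 genes of the epithelial adhesion list that passed the minimum level had a ratio above 1 against the other cells, none reached 2-fold, and the median log2 ratio was 0.69. Krt18, an epithelial keratin gene, was in 123 members at 814 CPM against 440 CPM (ratio 1.85, 1.75 to 1.95). Epcam was at 336 CPM against 209 CPM (ratio 1.61, 1.48 to 1.75) and Cdh1, the E-cadherin gene, at 102 against 61.1 CPM (ratio 1.67, 1.43 to 1.95). Trh, which is also a foregut endoderm gene in the early embryo, was in 99 members at 809 CPM against 513 CPM (ratio 1.58, 1.49 to 1.66). These levels were close to those of the Otx2 cells without Gsc, in which the ratio was 1.16 for Krt18, 1.18 for Epcam, 0.989 for Cdh1 and 0.796 for Trh (0.752 to 0.843), so Trh was lower in the members.

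Of the pharyngeal list 4 genes passed the minimum level and 3 were 2-fold or more higher than in the other cells, with a median log2 ratio of 1.27, against 0.33 and none of 6 relative to Otx2 cells without Gsc. Eya1, a transcriptional cofactor gene of pharyngeal and cranial tissue, was in 33 members at 20.4 CPM against 10.3 CPM (ratio 1.98, 1.36 to 2.79), and reached the 2-fold count through the added prior of 0.5 counts. The pharyngeal genes Pax1 and Nkx2-3 were in 2 and 9 members. Fgf8, a growth factor gene of the pharynx and streak, was at 57.9 CPM against 31.6 CPM (ratio 1.83, 1.48 to 2.25). The list shares Pax9 with the markers, so these counts are not separate.

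**Figure D2:**
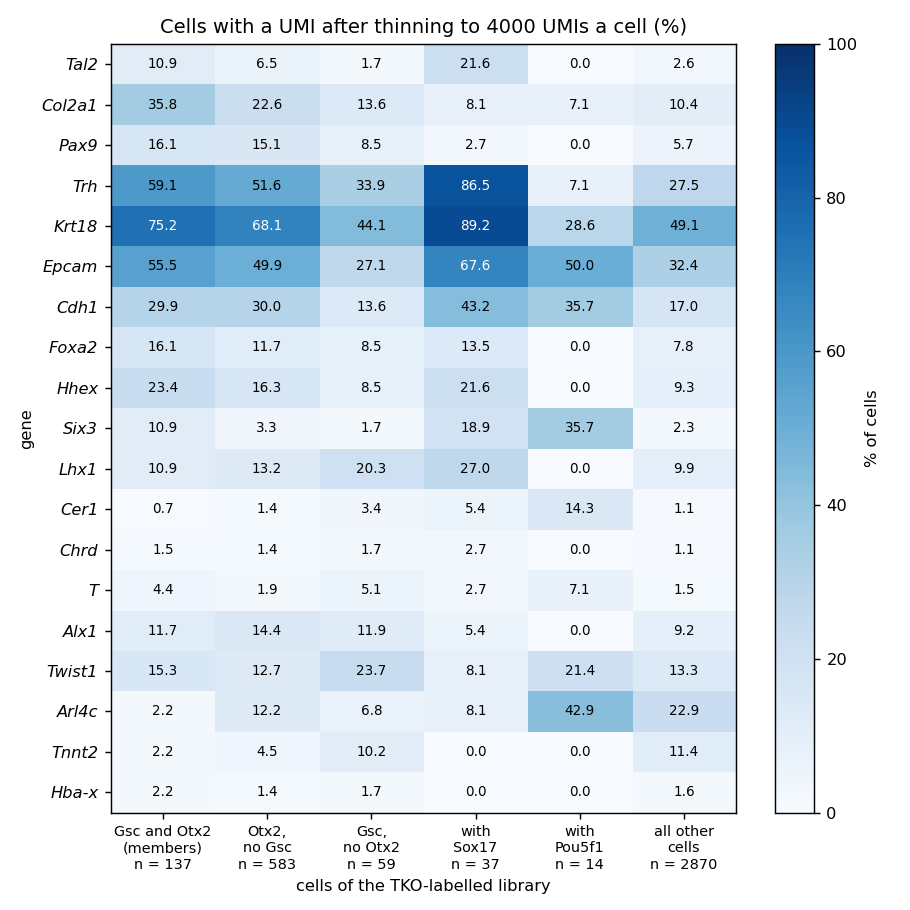
Percent of cells with at least 1 UMI of each gene after every cell was thinned to 4000 UMIs, in members, in 4 groups that miss 1 condition of the rule, and in all other cells of the TKO-labelled library. Members and Otx2 cells without Gsc are close for Pax9 (16.1% and 15.1%) and Cdh1, while Six3 and Col2a1 are more frequent in members and Arl4c less frequent.

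Genes of head mesenchyme were present in a portion of the members. Alx1, a homeodomain factor gene of frontonasal and periocular mesenchyme, was in 44 members at 49.3 CPM against 31.7 CPM (ratio 1.56, 1.23 to 1.94). Its share after thinning was 11.7% of members, 14.4% of Otx2 cells without Gsc and 9.16% of the other cells. Twist1, a bHLH factor gene of cranial mesenchyme, was at 37.4 CPM against 36.6 CPM (ratio 1.02, 0.786 to 1.31). Of the head mesoderm list 9 genes passed the minimum level and 3 were 2-fold or more higher (median log2 ratio 0.64), and against Otx2 cells without Gsc none of 10 was (0.04).

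Of the 12 genes with the highest ratios among those at 50 CPM or more, 11 are given here: Nnat, Cntnap2, Igfbp3, Igfbp5, Col2a1, Pax9, Cthrc1, Tspan15, Cyp26a1, Rab15 and Irx5. Nnat, an imprinted proteolipid gene, led with a ratio of 4.92, but 101 of its 140 UMIs were in 1 cell and the ratio without that cell was 1.38. Cntnap2, a neurexin-family adhesion gene, was spread over 63 members with at most 7 UMIs in 1 cell, at 59.6 CPM against 13.8 CPM (ratio 4.32, 3.45 to 5.35). The insulin-like growth factor binding protein genes Igfbp3 and Igfbp5 were at 66.4 and 332 CPM against 16.6 and 95.1 CPM (ratios 3.99 and 3.50). Cyp26a1, which encodes an enzyme that degrades retinoic acid, was in 79 members at 126 CPM against 46.8 CPM (ratio 2.69, 2.33 to 3.10). Irx5, an Iroquois homeodomain factor gene, had a ratio of 2.62 and Cthrc1, a secreted matrix gene, one of 2.82. Rab15 and Tspan15, genes of a vesicle GTPase and a tetraspanin, had ratios of 2.65 and 2.72. Genes that overlap others on the genome, Nnat with Blcap and Pax9 with Slc25a21 among them, are uncertain for the reason given for Six3.

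**Figure D3:**
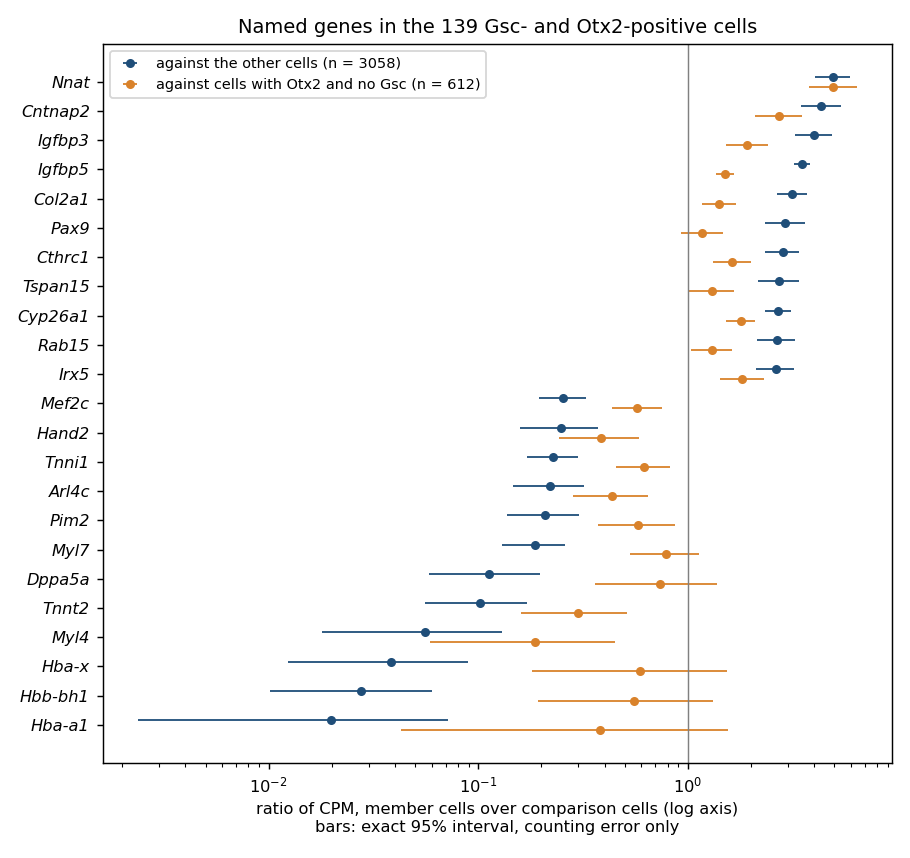
Ratio of CPM (log axis) for 11 of the 12 highest and all 12 lowest genes, in members over the other cells (blue) and over Otx2 cells without Gsc (orange), with exact 95% intervals for counting error. Apart from Nnat, the ratios over Otx2 cells without Gsc lie nearer to 1, and Cntnap2 keeps a ratio of 2.71.

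The lowest 12 genes were those of blood and heart muscle, of pluripotent cells, and a few others. The globin genes Hba-a1 (adult alpha chain), Hbb-bh1 and Hba-x (both embryonic) were 50.6-fold (14.0 to 418), 36.3-fold and 26.2-fold lower than in the other cells, with 13 UMIs in members in all. A few cells set this comparison, since the 20 other cells with the most globin held 96.6% of the 8098 globin UMIs. After thinning, Hba-x was in 2.19% of members and 1.64% of the other cells.

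Contractile and cardiac factor genes were lower across more cells. Tnnt2, the cardiac troponin T gene, was in 11 members at 7.94 CPM against 77.8 CPM (9.80-fold lower, 5.83 to 18.0), and Myl4, an atrial myosin light chain gene that overlaps Cdc27, was 18.0-fold lower (7.71 to 55.6). Myl7, another atrial light chain gene, was 5.38-fold lower with 22 of its 35 UMIs in 1 member, and 14.3-fold lower without that cell. Hand2 and Mef2c, factor genes of the heart progenitors, were 4.03-fold (2.70 to 6.31) and 3.94-fold (3.07 to 5.13) lower. Nkx2-5, the gene that carries the reporter in these cells, had 4 UMIs in 3 members and was 6.47-fold lower (2.51 to 23.8). All 10 cardiac progenitor genes that passed the minimum level had a ratio below 1. Of these 7 were 2-fold or more lower (median log2 ratio -1.76), against 1.57% of all genes. Isl1, a LIM homeodomain factor gene of the second heart field and pharyngeal endoderm, was the exception in size, at 87.4 CPM in 74 members against 95.1 CPM (ratio 0.919, 0.776 to 1.08). Against Otx2 cells without Gsc, 2 of 9 cardiac progenitor genes and 1 of 7 contractile genes were 2-fold or more lower, against 0.54% of all genes. The median log2 ratios there were -0.56 and -0.09. Of 9 contractile genes 5 were 2-fold or more lower than in the other cells. The 2 with a ratio above 1 were Myh7, a cardiac myosin heavy chain gene, in 14 members at 14.7 against 8.48 CPM (ratio 1.74, 1.12 to 2.61), and Tpm1, a tropomyosin gene not limited to muscle, at 581 against 411 CPM.

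Genes of naive pluripotency were lower too, while those of core and formative pluripotency mostly were not, and the limit on Pou5f1 in the rule bears on both. Dppa5a was 8.88-fold lower (5.07 to 17.2) and Pim2, a kinase gene, 4.82-fold lower (3.30 to 7.32). The thinned shares of cells with Dppa5a were near each other, at 2.92% of members and 3.97% of the other cells. Of 5 naive pluripotency genes 3 were 2-fold or more lower than in the other cells (median log2 ratio -1.22). Against Otx2 cells without Gsc none of 4 was (-0.32). Of 8 core and formative genes 1 was 2-fold or more lower than in the other cells, Utf1. Of the same 8 genes 5 had a ratio above 1 (median log2 ratio 0.18). Sox2, a pluripotency and neural factor gene, was at 43.1 against 35.2 CPM (ratio 1.22, 0.957 to 1.54). Arl4c, a small GTPase gene, was 4.54-fold lower (3.13 to 6.85), at 15.9 CPM against 72.1 CPM, and in contrast to the globins it was in 1238 of the other cells. Thinned, it was in 2.19% of members, 12.2% of Otx2 cells without Gsc and 22.9% of the other cells. Hox genes of the trunk were almost absent, with 15 UMIs of 18 Hox and Cdx genes over the members and 11 of the 18 genes at 0. The sum was 8.51 CPM, against 81.2 CPM in the other cells and 22.6 CPM in Otx2 cells without Gsc. Hoxb2, a hindbrain-level Hox gene, was 9.13-fold lower (4.42 to 22.8).

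Markers of other cell types were present at differing levels. The 12 genes of matrix-rich mesenchyme and feeder fibroblasts summed to 18.7 CPM in members (12.9 to 26.3) and 28.4 CPM in the other cells, with 4 at 0 in the members, Col1a1 among them. Of 12 endothelial genes 6 were at 0 in members, including Cdh5, and the sum was 98.7 CPM against 205 CPM, with a UMI in 81 members. The 13 contractile genes summed to 729 CPM in members, 887 CPM in the other cells and 696 CPM in Otx2 cells without Gsc, and 1024 of the 1285 UMIs in members were of Tpm1. The 12 extraembryonic endoderm genes summed to 799 CPM in members, 962 CPM in the other cells and 918 CPM in Otx2 cells without Gsc, with 4 at 0 in members. Contractile and extraembryonic endoderm genes each had a UMI in 138 members, and in 2801 and 2921 of the 3058 other cells. Their part in the results was not tested.

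**Figure D4:**
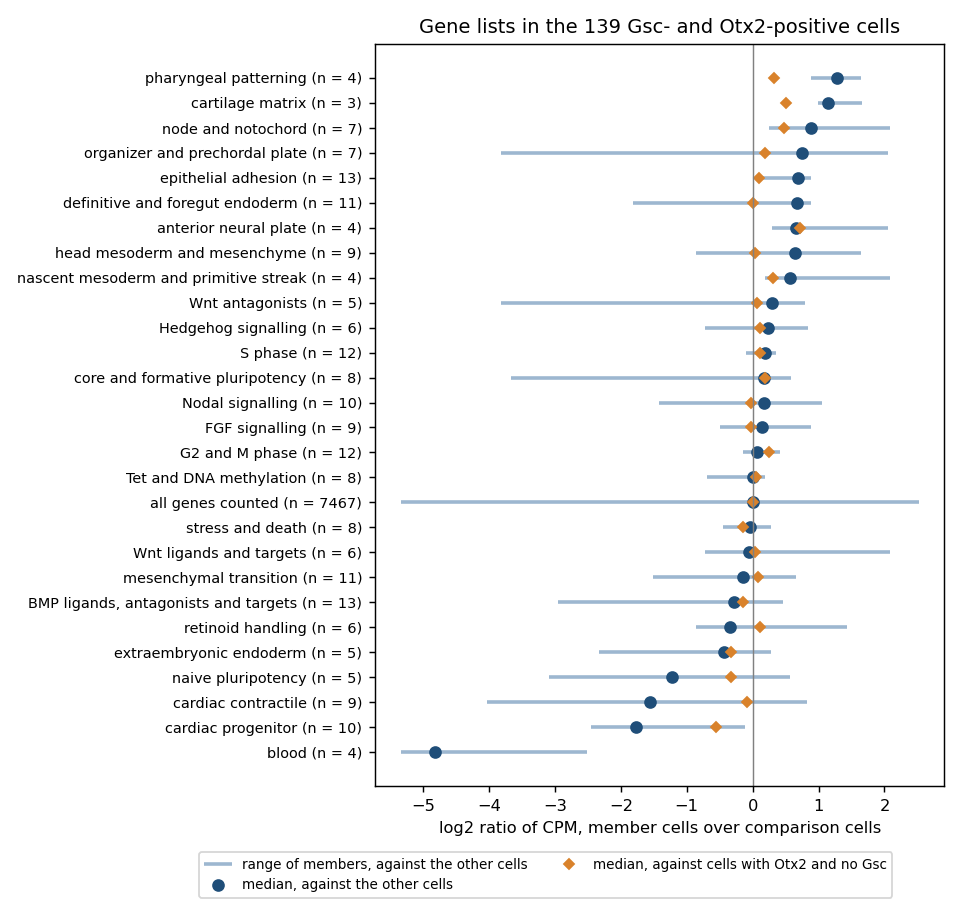
Log2 ratio of CPM by gene list in members, with the range of genes against the other cells (bar), the median against the other cells (blue) and the median against Otx2 cells without Gsc (orange), and n the number of genes over the minimum level against the other cells. Medians against the other cells run from -4.82 for blood to 1.27 for pharyngeal patterning, and most medians against Otx2 cells without Gsc lie closer to 0.

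Against Otx2 cells without Gsc, the 6 highest genes were Nnat, Cntnap2 (ratio 2.71, 2.09 to 3.50), Clu, Mt2, Mt1 and Ptch1 (ratio 1.93, 1.60 to 2.33). Clu, a secreted chaperone gene, had 36 of 91 UMIs in 1 member, and the metallothionein genes Mt1 and Mt2 had 64 of 213 and 27 of 130. The 6 lowest were Spink1, a protease inhibitor gene of gut endoderm, at 59.0 against 195 CPM (3.31-fold lower, 2.71 to 4.08), Apela, a peptide hormone gene of mesendoderm, at 42.0 against 128 CPM (3.05-fold lower, 2.40 to 3.92), and Rgs5, Ctsh, Ldhb and Gata6. Gata6, a zinc finger factor gene of endoderm and heart, was 1.90-fold lower (1.46 to 2.51).

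Members held more Otx2 than these neighbours, so both groups were also split by Otx2 count, a split chosen after the data were seen. Among cells with 3 or more Otx2 UMIs, 73 members and 207 neighbours, the ratio was 1.02 for Pax9 (0.739 to 1.40), 1.00 for Cyp26a1 (0.805 to 1.24) and 1.18 for Col2a1 (0.911 to 1.51), and that for Tal2 was 0.633 (0.398 to 0.975). Ratios of Cntnap2 at 1.95 (1.39 to 2.72) and Ptch1 at 2.03 (1.54 to 2.67) stayed above 1, and Spink1 and Apela were 2.64-fold and 2.47-fold lower. Among cells with 1 or 2 Otx2 UMIs, 66 members and 405 neighbours, the ratios were larger for Cyp26a1 (3.20, 2.47 to 4.13) and Tal2 (3.40, 2.06 to 5.50), Cntnap2 stood at 3.34 and Ptch1 at 1.87. Cntnap2, Ptch1, Spink1 and Apela thus differed the same way at both Otx2 levels, whereas Tal2 was higher in members at the low level and lower at the high level.

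The 62 cells with Gsc, no Otx2 and the same limits on Sox17 and Pou5f1 differed from the members in several genes. They were mixed, with Krt18 in 35, Epcam and Mef2c in 19 each and Hand1 in 10. Before those limits, 56 of 69 cells with Gsc and no Otx2 held 1 Gsc UMI, so stray transcripts cannot be told apart here either. Kdr and Etv2, receptor and factor genes of blood vessel and blood progenitors, were lower in the members, Kdr at 16.4 against 117 CPM (7.09-fold lower, 4.55 to 11.3, with 18 of its 29 UMIs in 1 member) and Etv2 with 1 UMI against 36. Hand1, a mesoderm factor gene, was 6.19-fold lower (3.27 to 12.3), with 13 of its 15 UMIs in 1 member. Cyp26a1 was at 126 against 38.3 CPM (ratio 3.29, 2.15 to 5.24), and Slc2a1, the glucose transporter 1 gene, at 682 against 219 CPM (ratio 3.12, 2.61 to 3.75). Tal2 had 1 UMI in these 62 cells.

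The 2 exclusions of the rule removed cells that differed from the members. The 37 cells with both genes and at least 2 Sox17 UMIs held Cer1 at 197 CPM (115 UMIs in 7 cells) against 10.2 CPM in members (19.3-fold lower in members, 11.7 to 33.7), Spink1 at 354 CPM (6.00-fold lower) and Eomes, a T-box factor gene of endoderm and mesoderm, at 66.7 CPM (5.88-fold lower, 3.35 to 10.6). Cer1, which marks anterior endoderm in the embryo, was thus higher on the excluded side of the Sox17 limit. Pax9 and Sox9 were higher in members, with ratios of 4.69 (2.19 to 12.0) and 3.98 (1.94 to 9.48), while Tal2 was 3.07-fold lower (2.08 to 4.52). The 14 cells with at least 3 Pou5f1 UMIs held Utf1, a pluripotency gene, at 151 against 2.27 CPM and Pim2 at 534 against 15.3 CPM.

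Among the members the epithelial and mesenchymal genes varied in opposite directions. The epithelial adhesion list made up a median of 27.5 UMIs per 10000 of a cell, from 0 to 124, and the mesenchymal transition list a median of 3.10, from 0 to 18.8. Their Spearman's rho was -0.43 over 139 cells of 1 library, given as a description. Gsc counts followed neither list (rho 0.03 and -0.10).

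**Figure D5:**
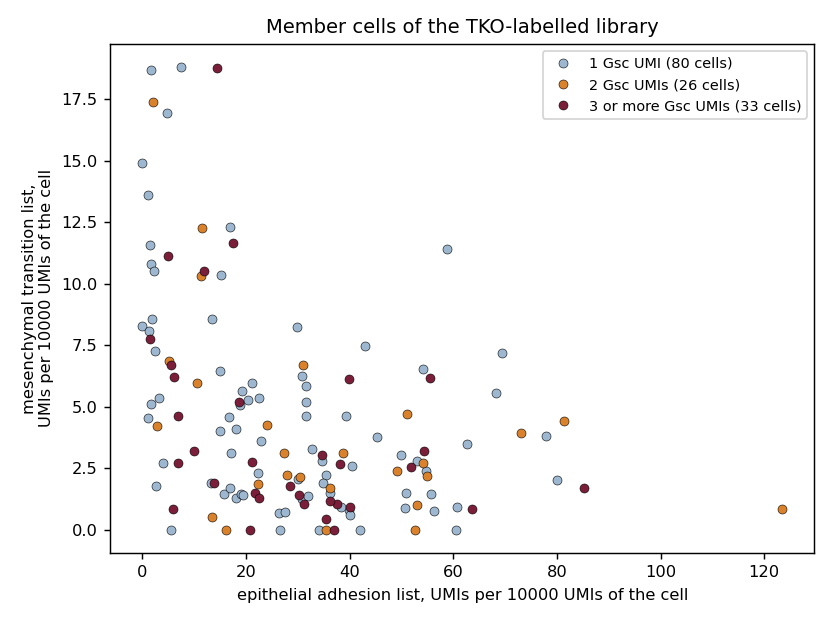
Each point is 1 of the 139 members, with the epithelial adhesion list (x axis) and the mesenchymal transition list (y axis) in UMIs per 10000 UMIs of the cell, coloured by Gsc count. Cells with high mesenchymal values lie mostly at low epithelial values, and all 3 Gsc classes are spread over the range.

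A split by Trh shows the same spread by gene. Trh was in 99 members and absent from 40, with like depths (medians of 11925 and 11144 UMIs). In members with Trh, Krt18 was at 950 against 404 CPM (ratio 2.35, 2.01 to 2.77), Cdh1 at 122 against 43.3 CPM, Hhex at 74.0 against 20.5 CPM (ratio 3.61, 1.82 to 8.12), Pax9 at 66.4 against 25.1 CPM and Isl1 at 104 against 36.5 CPM. In members without Trh, Twist1 was at 91.2 against 19.6 CPM, 4.65-fold higher than with it (2.77 to 7.93), Prrx1 at 43.3 against 15.1 CPM and Vim, the vimentin gene, at 144 against 79.3 CPM. Foxa2 did not follow the split, at 43.8 and 43.3 CPM. Trh and Alx1 were together in 29 members, Trh alone in 70, Alx1 alone in 15 and neither in 25, so the 2 genes were not exclusive.

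Levels differed with the Gsc count for some genes. In the 33 members with 3 or more Gsc UMIs, Cyp26a1 was at 190 CPM (153 to 234) against 104 CPM (85.0 to 126) in the 80 with 1. Epcam was lower, at 229 CPM (187 to 276) against 368 CPM (331 to 408), as was Tspan15, at 21.4 against 62.7 CPM. Foxa2 stood at 61.9 CPM (41.5 to 88.9) against 33.4 CPM (23.0 to 46.9) and Pax9 at 32.0 CPM (17.9 to 52.8) against 63.7 CPM (49.0 to 81.5), with intervals that overlap. Col2a1 was at 115 and 83.9 CPM, also with overlapping intervals. These intervals cover counting error within 1 library and not the spread between cells.

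Among genes of signalling pathways, those of the BMP pathway held the most at 2-fold or more lower than in the other cells. Of 10 Nodal pathway genes 1 was 2-fold or more higher than in the other cells and 1 lower, the co-receptor gene Cfc1 (2.71-fold, 1.94 to 3.91), while the ligand gene Nodal had 2 UMIs and its target Lefty2 none in the members. Of 13 BMP genes none was higher and 4 were lower (median log2 ratio -0.28), against 1.57% of all genes. These were the ligand genes Bmp5 (3.82-fold, 2.18 to 7.43) and Bmp4, the latter at 13.0 against 44.0 CPM (3.37-fold lower, 2.24 to 5.34), the inhibitor gene Smad6 (3.17-fold, 1.71 to 6.64) and the target gene Msx2 (8.69-fold, 3.38 to 32.0). Against Otx2 cells without Gsc, 1 of 11 BMP genes was 2-fold or more lower (median log2 ratio -0.15), against 0.54% of all genes. The target Id1 was near the other cells, at 747 against 778 CPM. Of 6 Hedgehog genes none reached 2-fold, and Ptch1 was at 98.7 against 55.2 CPM (ratio 1.79, 1.52 to 2.09) while Gli1, another target, was at 4.54 CPM in both. The 12 S phase and 12 G2 and M phase genes held none at 2-fold, with median log2 ratios of 0.19 and 0.07.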

How the data were processed

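The deposited tables hold unnormalised whole-number counts, taken here as UMIs, by gene and cell for 1 library per genotype. Submitters' processing notes name Seurat 3 and mm10 without their role, and for aligner, counter, chemistry and filters: not given in the sources used here. Totals were 37537946 UMIs in 4395 WT-labelled cells and 33602635 in 3223 TKO-labelled cells, whose header names 3224 barcodes, so cells were read by position. The 27998 gene rows were matched by position (116 names differ by a suffix). The mitochondrial limit of 15% removed 3 and 26 cells. The headers share 21 barcode sequences.

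Python 3.11.15, numpy 2.4.6 and scipy 1.17.1 gave sums, CPM with exact Poisson intervals, ratios with exact binomial intervals and Clopper-Pearson shares. Only the ratios, their intervals and the 2-fold calls were checked on simulated data. The simulated counts were independent Poisson sums, so the check does not cover UMIs that cluster in single cells. No doublet caller was run. Genes named were the 12 highest and 12 lowest ratios (6 against each neighbour group) at 50 CPM or more, without mitochondrial, ribosomal, Gm, Rik and rule genes, plus list members; some are not reported here. The members and lists were chosen with earlier results of these data known. List medians used a prior of 0.5 counts. The alternatives tried stand in the closing section.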

Additional observations from a re-analysis of the deposited data

How the results depend on the processing

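No paired analysis was possible because each genotype had 1 single-cell library and the result comes from no test. The share of TKO-labelled cells found by the rule was 1.85% with at least 2 Gsc UMIs, 3.19% with at least 2 Otx2 UMIs, 5.51% with no limit on Sox17 and 1.83% in thinned cells, against 4.35%. The WT-labelled share was 0 with at least 2 Gsc UMIs, in thinned cells and without the 5% of cells with the most UMIs. Genes 2-fold or more higher and lower than in the other cells, 59 and 117, became 130 and 182 with at least 2 Gsc UMIs, where fewer cells were summed, 203 and 331 at a mean of at least 3 CPM, and 21 and 36 at 30 CPM. With a prior of 5 counts they were 93 and 75, since the prior weighs more in the smaller group. The organizer list's median log2 ratio ranged from 0.63 to 0.82 over its alternatives. For single genes against the other cells, 257 of 275 alternative values lay within the interval of the main value, as did 45 of 48 values against neighbours, and 292 of 305 list medians lay within the median bounds of their genes' intervals. The settings at 3 and 30 CPM leave the ratio of a single gene unchanged. Their values are among the 257 by construction and are no check. No single gene changed sign. List medians near 0 did: that of FGF, 0.13, was -0.31 at a mean of 3 CPM, and that of retinoid handling, -0.35, was 0.20 at 30 CPM. Without the member with the most UMIs of each gene, a setting chosen after seeing the data, the log2 ratio was 0.48 for Nnat and -3.79 for Myl7. With named genes taken from 20 CPM, 6 of the 12 highest and 6 of the 12 lowest remained. Depth limits genes held by few members, where 3 counts are the floor.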
